A study of Mus musculus with 2 samples.

Results

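The cells described here are luminal cells of the late pregnant mouse mammary gland that were not cycling and held little milk RNA. They numbered 354 of the 15772 cells kept, 251 from an Ehf knockout library and 103 from a wild type library. A barcode was kept with at least 1000 unique molecular identifiers (UMIs, each counting 1 captured transcript end), at least 500 genes and at most 20% mitochondrial UMIs. A kept cell belonged to the class when it met 4 conditions. Its UMIs of the luminal genes Krt8, Krt18, Krt7, Krt19, Cldn3 and Cldn4 outnumbered those of the basal genes Krt14, Krt5, Krt17, Acta2, Myh11 and Mylk and came to at least 3. Fewer than 3 of Cited1, Calca, Areg, Tph1, Tmprss6, Esr1 and Pgr, which mark hormone-sensing cells, were detected. Fewer than 3 UMIs came from Ube2c, Nusap1, Cenpf, Birc5, Ccnb1, Cdk1, Top2a and Mki67, which mark dividing cells. The 7 milk genes Csn1s1, Csn1s2a, Csn2, Csn3, Wap, Lalba and Glycam1 made up less than 5% of the cell's UMIs (the milk share). The members were thus chosen by measured expression, by the UMIs of these 34 genes in each cell, and the levels of these genes in the class are a description only.

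The knockout library came from EhfKO mice and the wild type library from WT mice. Both were made from adult females at day 18.5 of pregnancy, and each pooled the thoracic and inguinal glands of 2 females. Live cells without Ter119, CD31 and CD45 on their surface, the markers of red cells, endothelium and leukocytes, had been sorted, and were profiled with the 10x Chromium 3' V3 chemistry. The series set out to compare mammary epithelium with and without Ehf shortly before birth. There was 1 library per genotype, so none of the differences below could be checked in a replicate, and genotype, animals and library cannot be told apart. Intervals are 95% intervals for counting error only, and a gene is counted as higher or lower at 2-fold, a rule of size and not a test.

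Luminal progenitors are the cells of the mammary duct and early alveolus from which milk-secreting alveolar cells arise during pregnancy. They are known for the receptor tyrosine kinase Kit, the retinaldehyde dehydrogenase Aldh1a3 and the transcription factors Elf5 and Sox10. Prolactin signalling through its receptor and STAT5, with Elf5, drives their differentiation, after which caseins and whey proteins fill the transcriptome. Ehf is an epithelial transcription factor of the ETS family, whose members bind DNA at a GGAA core. Secretory cells also depend on the unfolded protein response, which raises endoplasmic reticulum (ER) chaperones such as Hspa5 when the protein load is high.

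The deposited matrices held 7275 knockout and 11258 wild type barcodes with 40066795 and 48720938 UMIs. They shared 25 barcode sequences, 15 among kept cells and 0 within the class. Class cells had a median of 5635 UMIs (range 1052 to 22303) in the knockout library and 2976 (1053 to 17106) in the wild type library, so the knockout cells were the deeper ones. The median number of genes was 1926 and 1224, and the median mitochondrial share 6.22% and 6.31%. Free milk RNA was also unequal between the libraries. Basal cells, which do not make milk, had a median milk share of 0.0914% in the knockout library and 1.01% in the wild type library. In the wild type library 50 of the 103 members lay at or below 1.38%, the upper quartile of its basal cells, and in the knockout library 59 of 251 lay at or below the matching 0.136%.

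Ehf itself was detected in both libraries. Its level in the class, in counts per 1000000 UMIs summed over the cells (CPM), was 141 (interval 124 to 160) in the knockout and 426 (364 to 495) in the wild type. After scaling, described below, the knockout level was lower by 1.66 on the log2 scale (interval -1.95 to -1.37; 241 and 169 UMIs), and it was lower by 0.98 when each cell was thinned to 2000 UMIs before summing and shallower cells were left out (237 knockout and 75 wild type cells). The Ehf gene lies on chr2:103263431-103303275 (GRCm38.p6). Which part of Ehf was deleted is not stated in the sources used here, so transcript ends counted at Ehf may lie outside it and do not check the label. Of 4 cell classes set side by side, the class held the most Ehf in each library. Luminal cells with a milk share of 5 to 15% held 79.8 CPM in the knockout against 278 in the wild type, hormone-sensing cells 29.2 and 63.6, and basal cells 4.54 and 19.4.

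The class was a larger share of the knockout library. It made up 3.83% (interval 3.37 to 4.32) of kept knockout cells and 1.12% (0.914 to 1.35) of kept wild type cells. Among non-cycling luminal cells that were not hormone-sensing, it made up 58.4% (53.6 to 63.1; 251 of 430) in the knockout and 5.21% (4.27 to 6.29; 103 of 1976) in the wild type. The next milk range, 5 to 15%, held 111 knockout and 120 wild type cells. Above 15% the libraries parted, with 60 and 777 cells between 15 and 35% and 8 and 976 above. Such shares depend on the sort and on the cells loaded, and a cell's milk share is what sets its class, so they describe the 2 libraries.

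The milk limit cut through a continuous range, so the class is a range and not a separate type. In the knockout library 13 members had a milk share of 4 to 5% and 14 cells lay just outside at 5 to 6%. In the wild type library these numbers were 14 and 19. Most knockout members were far from the limit, with 131 of 251 under 0.5%, against 4 of 103 in the wild type. The median milk share was 0.464% and 1.51%. At the other limits, 1 knockout and 5 wild type members had 2 hormone-sensing genes detected, while 7 and 29 cells just outside had 3. For cell cycle UMIs, 30 knockout and 2 wild type members had 2, and 13 and 1 cells just outside had 3. In each library 8 members had only 3 to 5 luminal keratin and claudin UMIs, and the medians were 55 and 27.

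The label of progenitor-like cells was set against 5 given markers, and only Kit and Fcgbp were well above the next milk range, hormone-sensing cells and basal cells in both libraries. Kit stood at 335 CPM (308 to 364) in knockout members and 484 (418 to 557) in wild type members. In cells of the 5 to 15% milk range it was 52.2 and 157, in hormone-sensing cells 11.5 and 24.8, and in basal cells 3.86 and 4.97. Fcgbp, which encodes a mucin-like secreted protein that binds the Fc part of IgG, was at 828 and 2088 CPM in the class, 34.8 and 214 in the 5 to 15% range, 128 and 18.6 in hormone-sensing cells and 6.93 and 8.11 in basal cells. Barx2, a homeobox transcription factor, was at 240 and 151 CPM, against 138 and 146 in the 5 to 15% range, so that it was higher than there in the knockout library, while in the wild type library the levels were close. Plet1, a surface protein of placenta and epithelium, did not set the class apart: 784 and 630 CPM compared with 782 and 820 in the 5 to 15% range.

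Derl3, a membrane protein that serves to clear misfolded proteins from the ER, went against the label in the wild type library. It had 183 UMIs (107 CPM) in knockout members and 1 UMI (2.52 CPM) in wild type members, and in knockout cells of the 5 to 15% range it was higher still, at 192 CPM. Kit and Derl3 were each also found without the other. In the knockout library 145 members had a UMI of Kit alone, 26 of Derl3 alone, 26 of both and 54 of neither. In the wild type library 59 had Kit alone and 1 had both. The class is therefore called by its rule below, and Kit and Fcgbp are treated as its leading genes.

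**Figure D1:**
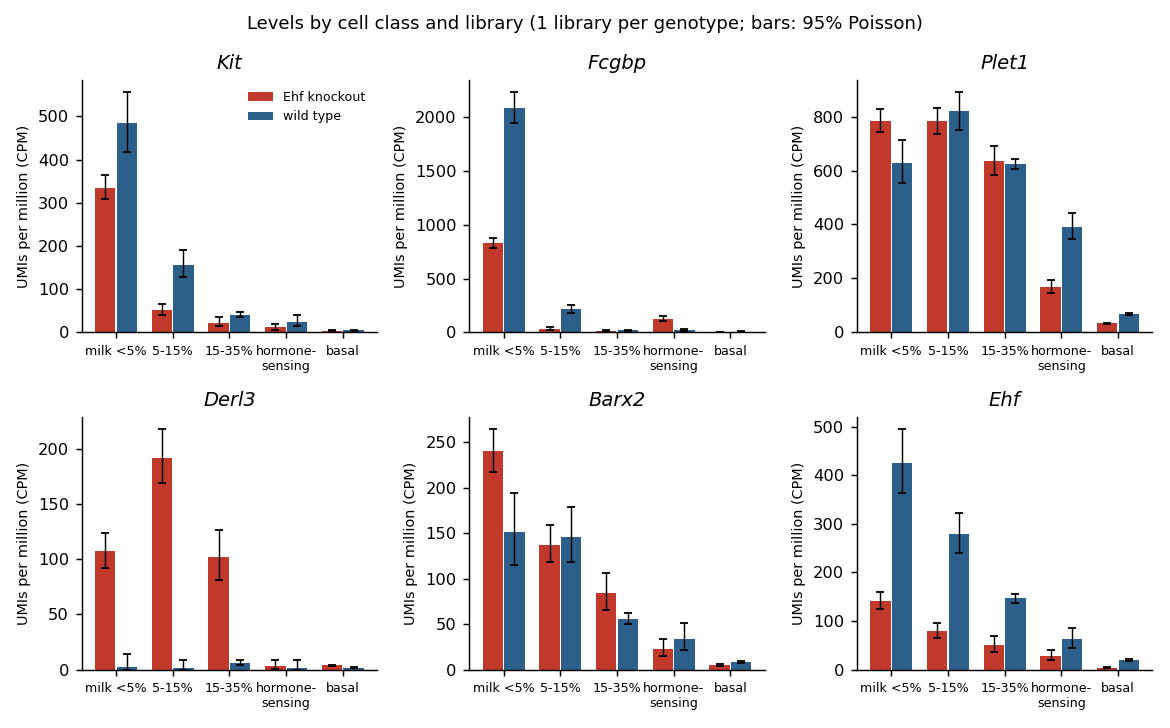
Levels of the 5 given markers and Ehf in CPM, 1 panel per gene, as bars with exact Poisson 95% intervals in 5 cell classes of each library (red knockout, blue wild type). Kit stands at 335 and 484 CPM in the class and under 25 CPM in hormone-sensing and basal cells, while Derl3 is at 107 CPM in knockout members and at 2.52 CPM in wild type members.

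Shares of cells with a UMI were compared after each cell had been thinned to 2000 UMIs, which left 237 of 251 knockout and 75 of 103 wild type members. Kit was then found in 36.7% (30.6 to 43.2) and 38.7% (27.6 to 50.6) of members, intervals that overlap widely. Without thinning the shares were 68.1% and 58.3%. In thinned basal cells, which should lack Kit, they were 0.537% and 0.452% (median depth before thinning 3701 and 2075 UMIs). Ehf was found in 28.7% and 44.0% of thinned members (unthinned 50.6% and 60.2%), and in 0.741% and 2.99% of thinned basal cells. Derl3 was found in 12.2% (8.35 to 17.1) of thinned knockout members and in 0 of 75 wild type members, which allows up to 4.80% (unthinned 20.7% and 0.971%).

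Markers of other lineages were looked for in all members. The basal and hormone-sensing markers include the basal and hormone-sensing genes of the rule, so their low sums in members were partly fixed by it. Basal cells were called by the same basal genes. Of 15 basal markers, all had UMIs, and their summed level was 1435 CPM in the knockout and 2904 CPM in the wild type class, against 41634 CPM in knockout basal cells. Of 15 hormone-sensing markers 12 had UMIs in each library, summing to 142 and 451 CPM, with Tnfsf11 and Pnmt at 0 in both. Of 10 immune markers, Ptprc, Cd52, Cd3e and Laptm5 were at 0 in the knockout class, and the sums were 14.1 and 594 CPM. Mesenchymal markers summed to 220 and 201 CPM and endothelial markers to 44.0 and 12.6 CPM, with Pecam1 and Cdh5 at 0 in both. Of the members 178 of 251 and 73 of 103 held 3 or more basal marker UMIs, and 24 and 13 held 3 or more of hormone-sensing markers. For immune (0 and 2), mesenchymal (2 and 1) and endothelial markers (1 and 0) such cells were few.

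Within the class, Kit and Fcgbp were high where the milk share was lowest and Derl3 where it was highest. In the 172 knockout members under 1% milk, Kit was at 453 CPM, Fcgbp at 1160 and Derl3 at 9.69. In the 79 knockout members at 1 to 5%, Kit was at 100 CPM, Fcgbp at 167 and Derl3 at 302. The ER chaperone Hspa5 moved with Derl3, from 830 to 3718 CPM, and Ly6d, a GPI-anchored surface protein, moved against it, from 255 to 15.8 CPM. In the wild type library the same cut gave 34 and 69 members, with Kit at 614 and 407 CPM and Fcgbp at 3027 and 1538. Derl3 had 0 and 1 UMIs there, and Hspa5 stood at 586 and 819 CPM. The cut of 1% lies next to the basal median of the wild type library, 1.01%, and far above that of the knockout library.

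Clustering of the 354 members without the genes of the rule gave 6 groups, described here by number, since the leading genes of clusters 2, 3 and 5 included markers of other lineages. Cluster 1 held 65 knockout and 43 wild type cells (25.9% and 41.7% of the members). It was led by Snorc, the transporter Slc5a7, the secreted BMP and Wnt inhibitor Sostdc1, Crip1 and Aldh1a3, and its median milk share, 0.143% and 0.913%, was close to that of basal cells of the same library. Cluster 2 (65 and 21 cells) was led by Fxyd2, Wfdc12, Prss22, Gpx3 and Hp, found in 11.6%, 25.6%, 20.9%, 8.14% and 16.3% of its cells. Cluster 3 (45 and 31 cells) was led by Cd74, MHC class II and C1q genes, each found in few of its cells. Cluster 4 held 58 knockout and 2 wild type cells (23.1% and 1.94%), with a median milk share of 3.05% in the knockout. Its leading genes were Derl3, Prol1, Cck, Creld2, Herpud1, Sdf2l1, Olah and Hsp90b1. Cluster 5 (11 and 4 cells) was led by collagens, each found in 13.3% of its cells, and Dcn, found in 60%. Its cells had a median of 31 UMIs of the basal genes of the rule, against 1 in clusters 1 to 4. Their median Scrublet doublet score was 0.133, against 0.0488 to 0.0545 in clusters 1 to 4, and whether they are doublets was not tested. Cluster 6 (7 and 2 cells) was led by small noncoding RNAs such as Rn7sk and Rpph1. Cells per cluster are a description, since the clusters were made from variable genes of all members together. Genes that differ between the libraries were not left out of these.

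**Figure D2:**
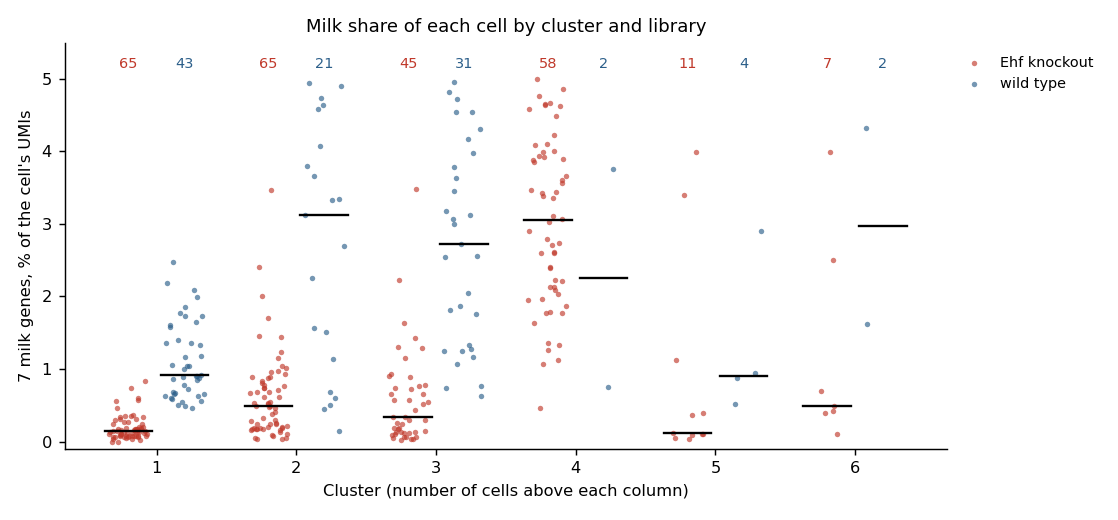
Milk share of each member cell, as percent of its UMIs, by cluster and library, with the number of cells above each column and a black line at the median. Knockout cells of clusters 1 to 3 lie mostly under 1%, knockout cells of cluster 4 spread up to 5% around a median of 3.05%, and wild type cells of cluster 1 lie around 0.913%.

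For the comparison of genotypes, UMIs were summed per library over the members (1704948 in the knockout, 397041 in the wild type). Levels are given as scaled CPM, in which the median log2 ratio over the 4688 genes with at least 50 UMIs in total was set to 0, a shift of 0.07 from plain CPM. Of these genes 198 were at least 2-fold higher in the knockout members (4.22%) and 150 at least 2-fold lower (3.2%). Without the shift the split was 256 and 118.

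Among the genes lower in the knockout members in many cells were Ltf, Aldh1a3, Mfge8 and Igfbp5. Ltf encodes lactoferrin, the iron-binding antimicrobial protein of milk. It had 119 UMIs (68.1 scaled CPM) in knockout members and 460 UMIs (1188 scaled CPM) in wild type members, lower by 4.13 on the log2 scale (interval -4.43 to -3.83). Of the wild type members 60 of 103 held an Ltf UMI and of the knockout members 49 of 251, and after thinning 46.7% (35.1 to 58.5) and 8.02% (4.90 to 12.2). Wild type basal cells were at 16.9 scaled CPM, so the wild type level in the class lay far above that of basal cells.

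Aldh1a3 was at 20.02 scaled CPM in the knockout (35 UMIs in 25 cells) and 173 in the wild type (67 UMIs in 35 cells), a log2 difference of -3.11 (-3.74 to -2.50). In thinned members it was found in 11 of 237 (4.64%, 2.34 to 8.15) and 15 of 75 (20%, 11.6 to 30.8), and in basal cells it was at 0.63 and 0.75 scaled CPM. Mfge8, the lactadherin of milk fat globules, was at 424 and 2229 scaled CPM (741 and 863 UMIs), a log2 difference of -2.39 (-2.54 to -2.25). It was found in 160 of 251 and 91 of 103 members. Basal cells also carried Mfge8, at 495 and 758 scaled CPM. Igfbp5, a secreted protein that binds insulin-like growth factors, was at 231 and 1444 scaled CPM, a log2 difference of -2.65 (-2.84 to -2.46). Igfbp5 is one of the basal markers, which are summed above at 1435 and 2904 CPM with Igfbp5 included. In basal cells themselves Igfbp5 was higher in the knockout, at 1902 against 1167 scaled CPM. In the class the median of the 9 measured basal markers outside the rule, Igfbp5 among them, was 0.05. Of these 2 were at least 2-fold lower and 0 higher, beside 3.2% and 4.22% of all genes. The list summed to 931 and 2583 scaled CPM. With at least 200 UMIs per gene 3 markers were measured, 2 of them lower, with a median of -1.81. Of all genes with that many UMIs 2.09% were lower. What basal RNA contributes to the Igfbp5 difference was not tested.

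The same direction held for Cst3, the secreted inhibitor of cysteine proteases cystatin C (37.8 and 230 scaled CPM, log2 -2.61), and for Rhoj, a small GTPase of the Cdc42 family (48.0 and 204, log2 -2.09). It held for Crip1, a LIM domain protein (200 and 752, log2 -1.91). Basal cells of both libraries held Cst3 at 149 and 160 scaled CPM and Rhoj at 119 and 131, so these genes are not particular to luminal cells. Cd14, the lipopolysaccharide co-receptor and a progenitor marker, had 100 and 76 UMIs and a log2 difference of -1.78 (-2.22 to -1.33).

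Promoter sequence was available for several of these genes from RefSeq (GRCm38.p6). The 250 bases before the start site are printed for Ltf and Mfge8, which were lower in knockout members in many cells, and for Derl3, the gene with the highest ratio. Capitals mark the ETS-type core AGGAAG or its reverse complement CTTCCT. The Ltf stretch is chr9:111019042-111019291 (+ strand), the Mfge8 stretch is chr7:79149061-79149310 (- strand) and the Derl3 stretch is chr10:75893148-75893397 (+ strand), each written 5′ to 3′ along the gene.
Ltf: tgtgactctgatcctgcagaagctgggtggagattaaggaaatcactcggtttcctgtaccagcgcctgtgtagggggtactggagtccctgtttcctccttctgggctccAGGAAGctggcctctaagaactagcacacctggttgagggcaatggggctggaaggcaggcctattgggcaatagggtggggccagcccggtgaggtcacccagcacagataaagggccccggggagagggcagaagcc
Mfge8: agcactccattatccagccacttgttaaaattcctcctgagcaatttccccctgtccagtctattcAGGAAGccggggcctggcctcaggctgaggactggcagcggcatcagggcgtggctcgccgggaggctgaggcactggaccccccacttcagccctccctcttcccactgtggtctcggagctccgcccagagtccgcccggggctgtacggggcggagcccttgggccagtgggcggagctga
Derl3: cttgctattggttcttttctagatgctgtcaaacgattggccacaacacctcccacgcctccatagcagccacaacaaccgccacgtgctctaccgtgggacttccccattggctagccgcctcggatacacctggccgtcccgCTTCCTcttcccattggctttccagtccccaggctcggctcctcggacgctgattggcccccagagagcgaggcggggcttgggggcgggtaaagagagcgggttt
Both strands of the 300 bases around the start site (250 before, 50 after) were searched for AGGAAG and for the longer ETS motif CCGGAAGT. A CCGGAAGT match holds CGGAAG, so it is not itself an AGGAAG match. AGGAAG was present for 6 of the 10 named lower genes with a promoter in the table (Cst3, Cxcl2, Fabp3, Ltf, Mfge8 and Rhoj). It was present in 2 of 10 promoters (9 genes) of the named higher genes, those of Cck and Derl3. Of all 32851 promoters 35.4% hold it, and of the 4623 promoters of genes with at least 50 UMIs in the class 32.5%. CCGGAAGT was in none of the promoters of named genes, against 3.89% of all promoters. A match describes the letters of a window and no binding was measured.

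Some of the largest differences rested on a few wild type cells. H2-Eb1, an MHC class II chain, had 0 UMIs in knockout members and 106 in wild type members, all in 3 cells, at least 159.5-fold lower when 3 counts are taken for 0. Cd74, the invariant chain of MHC class II, had 7 and 180 UMIs, the latter in the same number of cells (log2 -6.86), and 580 of the 587 wild type UMIs of MHC class II and C1q genes came from 3 cells. These genes belong to macrophages and dendritic cells. The 10 general immune markers summed to 14.1 and 594 CPM in the class, but Cd74 is one of them. It gave 7 of their 24 UMIs in the knockout and 180 of 236 in the wild type. Cells with 3 or more UMIs summed over mesenchymal, endothelial and immune markers were then left out (2 knockout and 4 wild type cells). Cd74 no longer reached 50 UMIs in total, which tests nothing, since Cd74 is among the markers used to leave cells out. Cxcl2, a neutrophil chemokine, was lower by 3.78 on the log2 scale, and 81.7% of its wild type UMIs came from 5 cells. Wfdc12, a whey acidic protein family member, was lower by 3.43 on the log2 scale, with 100 of 174 wild type UMIs in 1 cell. Its level in hormone-sensing cells was 26576 and 12335 scaled CPM, and among members with no hormone-sensing gene detected the difference turned to 1.65. In cluster 1 Wfdc12 had 32 knockout and 3 wild type UMIs. Fabp3, a fatty acid carrier of the secretory cell, was at 50.9 and 258 scaled CPM in the class (log2 -2.34). Basal cells held it at 56.6 and 846, so in both libraries the class was below the level summed over basal cells. Single basal cells reached milk shares of 36.1% and 50.7%, so these sums do not measure free RNA alone.

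**Figure D3:**
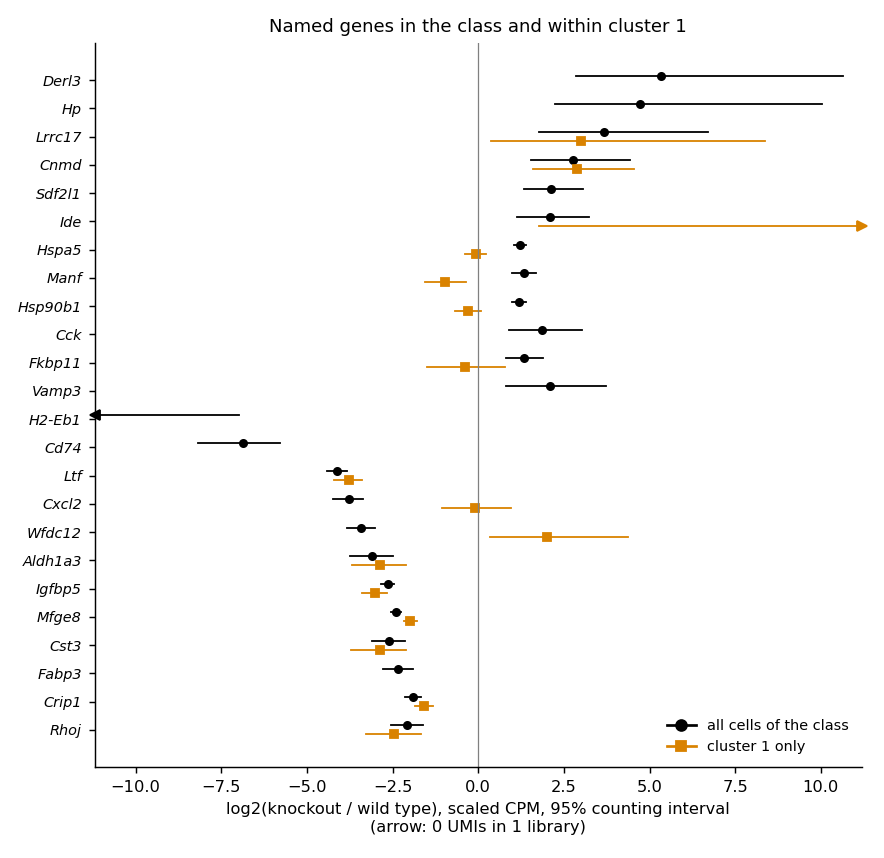
Knockout over wild type log2 ratios of the 12 highest and 12 lowest named genes, with exact 95% intervals for counting error, in all members (black circles) and within cluster 1 where enough UMIs were counted (orange squares); an arrow marks a gene with 0 UMIs in 1 library. Ltf is at -4.13 in all members and -3.78 in cluster 1, while Hspa5 is at 1.22 and -0.08.

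Genes higher in the knockout members included chaperones and quality control proteins of the ER. Derl3 was at 105 scaled CPM in the knockout against 2.58 in the wild type, a log2 ratio of 5.34 (2.84 to 10.65), and with 1 wild type UMI only the interval is informative. Sdf2l1, an ER chaperone cofactor, was at 147 and 33.6 scaled CPM (257 and 13 UMIs, log2 2.13). Hspa5, the main ER chaperone BiP, was at 1750 and 752 scaled CPM (log2 1.22, interval 1.05 to 1.40), and the ER chaperone Hsp90b1 at 1313 and 579 (log2 1.18). Manf, a secreted ER stress protein, was at 504 and 201 (log2 1.32). Fkbp11, an ER prolyl isomerase, had 375 and 33 UMIs (log2 1.33).

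Many genes of the ER response stood higher together, and the difference was found with cluster 4 included. Of 22 measured genes of the unfolded protein response 8 were at least 2-fold higher and 0 lower, with a median log2 ratio of 0.66, beside 4.22% of all genes tested and a median of 0 by construction. The 8 were Sdf2l1, Herpud1, Creld2, Sel1l, Manf, Hspa5, Hsp90b1 and Dnajc3. Xbp1, the transcription factor of this response, was at -0.30, Dnajb9 at -0.06 and Edem1 at -0.03. Among members with a milk share of 2 to 5% (54 knockout and 38 wild type cells), 17 of 21 measured genes were 2-fold higher, with a median of 1.49. Below 3% milk (216 and 75 cells) 5 of 22 were higher, with a median of 0.45. Over all genes tested in these 2 settings 7.68% and 5.25% were higher. Without cluster 4, which these unfolded protein response genes helped to define, 0 of the 19 genes still measured were 2-fold higher and the median was 0.00. Over all genes tested without cluster 4, 2.79% were higher, so the count of 0 is near that share. Within cluster 1 alone the median of 12 measured genes was -0.27, Hspa5 was at -0.08 and Manf at -0.97. Knockout cells of cluster 4 held Hspa5 at 4385 CPM and Derl3 at 361 CPM, with Kit at 91.9 and Fcgbp at 89.6 CPM and with 0 UMIs of Aldh1a3, Ly6d and Cnmd. Only 2 wild type cells fell in cluster 4, too few to compare levels within it.

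**Figure D4:**
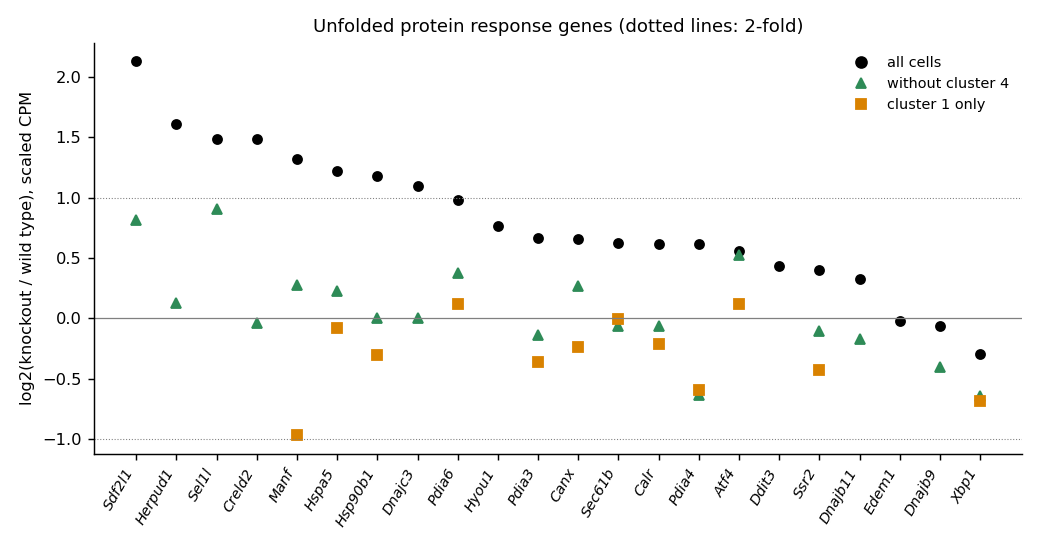
Log2 ratios, knockout over wild type, of the 22 measured unfolded protein response genes in all members (black circles), without cluster 4 (green triangles) and in cluster 1 alone (orange squares), with dotted lines at 2-fold; a gene has no symbol where it was not measured. The median goes from 0.66 to 0.00 and -0.27.

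Other genes among the highest ratios did not belong to the ER. Hp (haptoglobin, an acute phase protein that binds haemoglobin) had 120 UMIs in 35 knockout cells and 1 UMI in the wild type (log2 4.73, interval 2.23 to 10.05). In cells of cluster 2 its counts were 62 and 1. Cnmd, chondromodulin, a membrane protein first known from cartilage, had 155 and 5 UMIs (88.7 and 12.9 scaled CPM, log2 2.78, interval 1.53 to 4.42). Ide, the insulin-degrading protease, had 172 and 9 UMIs (log2 2.08), and Vamp3, a vesicle fusion protein, 96 and 5 (log2 2.09). Cck, the peptide hormone cholecystokinin, had 148 and 9 UMIs (log2 1.86) and was at 304 and 70.0 scaled CPM in the 5 to 15% range. Lrrc17, a secreted leucine-rich repeat protein, had 114 and 2 UMIs, and 71.1% of the knockout UMIs came from 5 cells. Its level in knockout basal cells was 204 scaled CPM, above the 65.2 of the class.

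Of 12 measured luminal progenitor markers 1 was at least 2-fold higher (Derl3) and 4 lower (Fcgbp, Aldh1a3, Cd14 and Tspan8), with a median of -0.45. Over all genes tested 4.22% were higher and 3.2% lower, and the counts of this and the following lists are to be read against these shares. Fcgbp was at 808 and 2141 scaled CPM (log2 -1.41) and Kit at 327 and 496 (log2 -0.60, interval -0.84 to -0.36). Elf5, the ETS factor of alveolar differentiation, was on the other side of 0, at 265 and 145 scaled CPM (log2 0.88, interval 0.47 to 1.303). Sox10, a neural crest and progenitor factor, was at -0.84 and Barx2 at 0.59. Of 8 measured epithelial ETS genes, Elf5 and Ehf among them, Ehf alone passed 2-fold, with Elf3 at -0.20, Elf1 at 0.02, Elf2 at 0.12 and Ets2 at -0.07.

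Genes of the prolactin pathway did not move one way. Of 16 measured, Stat5a (1.12) and Stat5b (1.19) were at least 2-fold higher, and Prlr, the receptor, was lower (-1.25), with a median of -0.31. The Stat5b interval, -0.01 to 2.69, includes 0. Prlr was at 56.6 and 134 scaled CPM in the class and at 1334 and 1343 in hormone-sensing cells, where the markers outside the rule also sit: 2 of 5 of those (Prlr and Fxyd2) were lower in the knockout class. The cyclin Ccnd1, a target of the pathway, was at 928 and 491 scaled CPM (log2 0.92), and the differentiation factor Cebpb at 537 and 289 (log2 0.89). Both were also higher in knockout basal cells, with log2 ratios of 0.89 and 1.42. The feedback inhibitors Cish and Socs2 were at -0.57 and 0.51.

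Genes of milk synthesis outside the rule were compared next. Among 5 genes of milk proteins that could be measured, 3 passed 2-fold on the lower side, Mfge8, Spp1 (-3.64) and the mucin Muc1 (-1.45), while Trf (transferrin) and Wfdc18 were at 0.01 and 0.14. Of 15 milk lipid genes 3 were lower, Fabp3, the butyrophilin Btn1a1 (-1.48) and Xdh (-1.37), with a median of -0.08, and 0 were higher. Of 7 mucosal defence genes 3 were lower, Ltf, Wfdc12 and the mucin Muc4 (-1.27), and 0 higher, while lipocalin Lcn2 was at -0.04. Acute phase and chemokine genes split, with Hp higher and Cxcl2, Cxcl1 (-1.62) and Cxcl10 (-2.58) lower out of 10. Sums over basal cells also held some of these genes. Spp1 was at 14.3 and 178 scaled CPM in the class and at 13.3 and 1021 in basal cells, and Xdh at 24.02 and 62.0 against 9.88 and 45.9. Muc1 lay above the basal level, at 37.8 and 103 scaled CPM in the class against 2.68 and 15.8 in basal cells, as did Btn1a1, at 109.8 and 307 against 6.89 and 138, and the part of free RNA in these differences was not tested.

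Some genes of DNA replication stood higher, in members that could still hold up to 2 cell cycle UMIs. Of 13 measured, 4 were at least 2-fold higher, Mcm7 (1.01), the ligase Lig1 (1.11), Tipin (1.34) and Rfc4 (1.03), and 0 were lower, beside 4.22% and 3.2% of all genes, and the median was 0.57. The Rfc4 interval, -0.30 to 2.72, includes 0. Of the knockout members 61 carried 1 and 30 carried 2 cell cycle UMIs, against 9 and 2 of the wild type members, and the knockout members were deeper. Among members with no cell cycle UMI only 5 genes of the list were measured, with a median of 0.46. Of these 0 passed 2-fold, beside 3.61% higher and 2.86% lower over all genes. In cluster 1 alone 4 genes of the list were measured, with a median of 0.16. Of 6 D cyclin and CDK inhibitor genes only Rb1 passed 2-fold, at -1.17.

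In the remaining lists few genes passed 2-fold. Of 21 cell junction genes, 15 glycolysis genes, 6 cholesterol synthesis genes, 6 interferon-stimulated genes, 8 Wnt genes and 5 Notch genes, 0 did so in either direction. The 20 immediate early genes, which respond to dissociation, had a median of -0.34, with Hspa1a (-1.10) lower. Of 16 S100, annexin and galectin genes 1 was higher, Lgals7 (1.11). Of 11 MHC genes 5 were lower and the median was -0.59, beside immune marker sums of 14.1 and 594 CPM, in which Cd74 is itself counted. With the same 2 knockout and 4 wild type cells of mesenchymal, endothelial and immune marker UMIs left out, 1 of 7 measured was lower. The median was then -0.26, and 3.05% of all genes were lower. Cd74 is in both the MHC list and the markers used to leave cells out, so part of this change was fixed beforehand. In cluster 1 alone 0 of the 5 MHC genes measured there passed 2-fold and the median was -0.00. Over all genes there, 3.01% were higher and 2.76% lower. The single endothelial gene measured, Fabp4, had 73 UMIs in the knockout class, 69 of them in 1 cell.

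Cluster 1, with 65 cells from the knockout and 43 from the wild type, was compared by itself, a choice made after the clusters were seen. Some of its leading genes, such as Aldh1a3 and Crip1, differed between the libraries within it. Kit did not differ beyond counting error there, at 722 and 733 CPM with a log2 ratio of -0.07 (interval -0.37 to 0.24). Ltf was at 136 and 1814 CPM (log2 -3.78, interval -4.20 to -3.39), Igfbp5 at 187 and 1478 (log2 -3.03) and Aldh1a3 at 44.6 and 313 (log2 -2.86, interval -3.67 to -2.10). Mfge8 was at 902 and 3446 CPM (log2 -1.98) and Crip1 at 468 and 1359 (log2 -1.58). Ehf was at 234 and 665 CPM (log2 -1.55, interval -1.95 to -1.16). These genes were thus also lower in this cluster, and the intervals given for Ltf, Aldh1a3 and Ehf lie below -1. Kit was not left out of the clustering, so its alike level here may follow from how the cells were grouped. The cells of the 2 libraries still differed in median depth (5413 and 2791 UMIs) and median milk share (0.143% and 0.913%). Cst3 (-2.88), Rhoj (-2.46) and Cd14 (-1.86) were lower as well, and Fcgbp was at 1838 and 3667 CPM (log2 -1.04).

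Some genes were higher in knockout cells of cluster 1. Cnmd was at 216 and 28.4 CPM (97 and 5 UMIs, log2 2.88, interval 1.61 to 4.54). Rspo1, a secreted activator of Wnt signalling, was at 169 and 45.5 CPM (log2 1.85), and the keratin Krt23 had a log2 ratio of 1.75. Ide had 35 UMIs against 0, and Cebpb was at 1.05. Counted over the 1594 genes measured in cluster 1 alone, 48 were at least 2-fold higher and 44 lower. Fewer UMIs enter this count than that over all members, which lowers the number of genes tested.

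Clusters 2 and 3 shared part of the pattern. In cluster 2 (65 and 21 cells) Ltf was at 30.5 and 208 CPM (log2 -2.89), Igfbp5 at -1.94, Mfge8 at -1.23 and Rhoj at -1.68. The intervals of Kit (-0.99 to 0.36), Ehf (-1.60 to 0.25), Cst3 (-2.48 to 0.87) and Fcgbp (-0.05 to 1.03) all include 0 there. In cluster 3 (45 and 31 cells) Ltf was at 123 and 573 CPM (log2 -2.36), Igfbp5 at -1.49, Mfge8 at -1.99, Cst3 at -3.56, Cd14 at -1.44 and Ehf at -1.34. Kit (-0.53 to 0.77) and Fcgbp (-0.64 to 0.25) had intervals around 0. So the lower Ltf, Igfbp5 and Mfge8 were measured in each of clusters 1, 2 and 3, while the interval of Kit included 0 in all 3. Over all members Kit was lower by 0.60 on the log2 scale, with the 58 Kit-poor knockout cells of cluster 4 included.

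The class was also set against non-cycling luminal cells with a milk share of 5 to 15% in the same library. Scaling moved the median of all genes by 0.18 in the knockout against 0.11 in the wild type, and levels are relative to that. Of 2489 genes measured in both libraries, 55 (2.21%) were at least 2-fold higher and 55 (2.21%) lower in each of them. The 2 classes are neighbours on the milk scale, so genes that track milk content had to differ.

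Ly6d was at 165 scaled CPM in the class and 7.56 in the 5 to 15% range in the knockout library (log2 4.45), and at 197 and 6.31 in the wild type (log2 4.96). Snorc, a small proteoglycan known from cartilage, had 174 UMIs against 4 in the knockout and 80 against 0 in the wild type. S100a6, a calcium-binding protein, was at 970 and 48.7 scaled CPM (log2 4.32) and at 804 and 58.4 (log2 3.78). Tm4sf1, a tetraspanin-like membrane protein, was at 3.39 and 2.68 on the log2 scale, and Emp1, an epithelial membrane protein, at 2.84 and 3.31. Gas6, the ligand of TAM receptors, was at 3.94 and 2.55, Basp1 at 3.89 and 2.54, and Dclk1, a microtubule-binding kinase known from tuft cells, at 4.05 and 2.30. Of 12 S100, annexin and galectin genes measured, 9 were at least 2-fold higher in the knockout against 7 in the wild type, with medians of 1.16 and 1.08. Over all 2489 genes, 3.90% were higher in the knockout library and 4.10% in the wild type library. Anxa2 was at 2.66 and 2.16.

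Genes of fat synthesis and uptake were lower in the class than in that range in both libraries. Of 15 milk lipid genes, 15 were at least 2-fold lower in the knockout against 13 in the wild type, with medians of -1.44 and -1.62. Over all 2489 genes, 3.50% were lower in the knockout library and 4.02% in the wild type library.
Thrsp, a regulator of fatty acid synthesis, was at 60.7 and 529 scaled CPM in the knockout (log2 -3.12) and at 38.9 and 257 in the wild type (log2 -2.73). Olah, the thioesterase that releases medium-chain fatty acids, was at -3.52 and -2.42 on the log2 scale, and the fatty acid transporter Cd36 at -3.42 and -2.56. Acsl1, which activates fatty acids, was at -2.07 and -1.73. Pigr, the receptor that carries immunoglobulin A into milk, was at -2.66 and -2.74, and Lao1, a secreted amino acid oxidase of milk, at -4.51 and -2.70. Fabp3 was at -4.71 and -2.29. Fam20c, the kinase that phosphorylates caseins, was at -2.47 and -2.01.

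**Figure D5:**
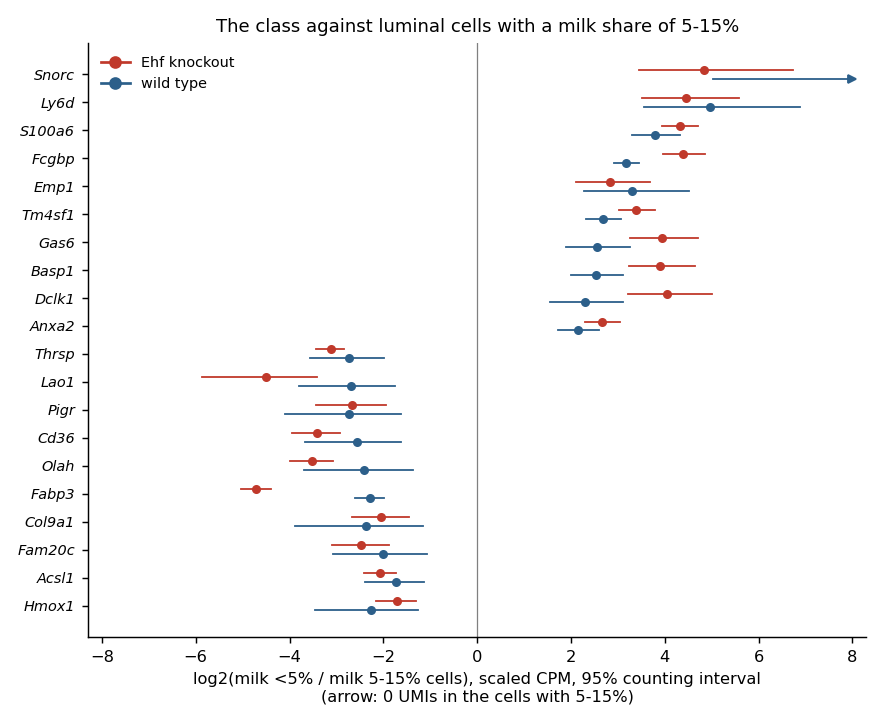
Log2 ratios of the 10 highest and 10 lowest named genes in the class over luminal cells with a milk share of 5 to 15%, 1 row per gene, with 95% intervals for counting error (red knockout, blue wild type); the arrow marks 0 UMIs in the wild type cells of 5 to 15%. Ly6d (4.45 and 4.96) and S100a6 (4.32 and 3.78) lie to the right of 0, and Thrsp (-3.12 and -2.73) and Lao1 (-4.51 and -2.70) to the left.

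Against hormone-sensing luminal cells of the same library, 186 of 2676 genes (6.95%) were at least 2-fold higher and 250 (9.34%) lower in both libraries. Kit was at 339 scaled CPM in the class and 11.4 in hormone-sensing cells in the knockout (log2 4.90), and at 497 and 24.2 in the wild type (log2 4.36). Ltf was at 70.8 and 4.36 scaled CPM (log2 4.02) and at 1191 and 34.7 (log2 5.10), so both libraries placed Ltf on the side of the class although their levels differed. Ccnd1 was at 965 and 53.2 scaled CPM in the knockout (log2 4.18) and at 492 and 36.2 in the wild type (log2 3.76). Cbr2, a carbonyl reductase, was at 4.43 and 3.97 on the log2 scale, Slc5a8, a monocarboxylate transporter, at 3.81 and 3.97, and the small heat shock protein Cryab at 3.61 and 4.61. Of 8 luminal progenitor markers measured, 8 were at least 2-fold higher in the knockout against 6 in the wild type, with medians of 2.89 and 2.81. Over all 2676 genes, 10.39% were higher in the knockout library and 11.17% in the wild type library.

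Of 6 hormone-sensing markers outside the rule that were measured against these cells, 4 were at least 2-fold lower in the class and 1 higher in the knockout library, and 5 and 1 in the wild type. Their medians were -4.37 and -2.87. Over all 2676 genes, 13.15% were lower in the knockout library and 13.34% in the wild type library. Among the genes with the lowest ratios, Agtr1a, the angiotensin receptor, had 1 UMI in knockout members and 351 in knockout hormone-sensing cells, and 0 and 65 in the wild type. Hsd11b2, which inactivates glucocorticoids, had 0 and 448 in the knockout and 1 and 130 in the wild type. Wnk4, a kinase that controls salt transport, had 3 and 217, and 1 and 137. These cells had been separated by related genes, so the difference describes how well the rule split them.

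Knockout over wild type ratios of the leading genes were set beside those of the other cell classes, without a test of the difference between classes. Ltf was lower by like amounts in the class and in the 5 to 15% range, at -4.13 and -4.08 (-4.72 to -3.50). Its ratio over hormone-sensing cells was -3.13 (-4.88 to -1.70). Over basal cells it was -4.22 (-4.90 to -3.61), where only 23 and 293 UMIs were counted. Single hormone-sensing cells reached milk shares of 0.802% (knockout) and 41.6% (wild type), and single basal cells 36.1% and 50.7%. What RNA carried over from milk-making cells adds to the ratios of hormone-sensing and basal cells was not tested. Mfge8 was at -2.39 in the class, -3.83 in the 5 to 15% range, -1.79 in hormone-sensing and -0.61 in basal cells. Igfbp5 was at -2.65 in the class and -3.19 in the 5 to 15% range, but at -0.83 in hormone-sensing cells and 0.70 in basal cells. Hspa5 was at 1.22 in the class and 1.85 in the 5 to 15% range, against -0.22 in hormone-sensing and 0.24 in basal cells. The lower Mfge8 and Igfbp5 and the higher Hspa5 thus had their largest values of these 4 classes in the luminal cells with a milk share up to 15%. For Aldh1a3 too few UMIs were counted outside the class to compare, 4 and 14 in the 5 to 15% range.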

How the data were processed

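The members, gene lists and the rule for named genes were chosen with earlier results of these data known. The values the authors deposited are raw UMI counts, whole numbers for each gene in each barcode, and carry no normalization. The submitters' processing notes name GRCm38 (mm10) and Seurat 4.0.4. Alignment, counting and the choice of barcodes were not described in the sources used here. Of 27179 features 1314 had no symbol and held 2.03% and 1.84% of the knockout and wild type UMIs of the class. They stayed in the totals.

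Counts were summed per library over cells with Python 3.11.15 (numpy 2.4.6, scipy 1.17.1, pandas 2.3.3). Genes with at least 50 UMIs over both sums were compared. Intervals are exact: Poisson for a level, conditional binomial for a ratio, Clopper-Pearson for a share, with a floor of 3 counts for 0. Named genes were the 12 highest and 12 lowest ratios by the interval bound nearest 0, with 50 or more CPM in the library with the higher level, 100 or more UMIs and 1 direction under 3 scalings, without predicted, mitochondrial, ribosomal, haemoglobin, immunoglobulin and rule genes. Against the other classes they were the highest and lowest by the smaller ratio of both libraries. List and marker genes were added, and others named in the text were chosen after their values were seen.

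Clusters came from scanpy 1.11.5 with Leiden at resolution 0.6 on 1500 genes, 20 components and 15 neighbours, leaving out the genes of the rule and milk, mitochondrial and ribosomal genes. Scrublet called 0 knockout cells, so its threshold did not work there, and 122 wild type cells. It called 0 members, and 3 knockout members were among the top 3% of scores. No doublet was removed. Scripts were tested on simulated data.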

Additional observations from a re-analysis of the deposited data

How the results depend on the processing

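Alternatives changed the number of genes at least 2-fold higher and lower in the knockout members (198 and 150) by over 1.5 times in these cases: no gene filter (3391 and 2669), at least 200 UMIs per gene (25 and 28), thinning to 2000 UMIs (59 and 45), a milk share of 2 to 5% (116 and 99), no cell cycle UMI (116 and 92), cluster 1 only (48 and 44), without cluster 4 (109 and 94) and, for higher genes, equal weight per cell (310). The first 2 change how many genes are tested, equal weight changes how cells count, and the others change how many cells or UMIs enter. The cluster alternatives were added after seeing the data. Of the values of single genes under alternatives 4133 stayed within their interval, 389 moved beyond it and 8 reversed. Those that reversed were Apoe (0.76 with a milk share of 2 to 5%, 1.60 with a stricter luminal call, 0.72 with cells of other lineages left out), Wfdc12 (1.65 with no hormone-sensing gene detected), Creld2 (-0.035 without cluster 4), and Hspa5 (-0.076), Manf (-0.97) and Hsp90b1 (-0.30) in cluster 1 only. For Apoe 59.2% of wild type UMIs came from 1 cell. Alternatives of scaling and of the gene filter use the same counts, so their values could move little. The settings with the most moved values were a milk share of 2 to 5% (57 stayed, 90 moved and 1 reversed) and cluster 1 only (73, 76 and 3). Ltf ranged from -5.42 to -3.68 over its alternatives, Mfge8 from -3.81 to -1.98, Igfbp5 from -3.03 to -2.30, Aldh1a3 from -3.35 to -2.69, Ehf from -1.81 to -0.98 and Kit from -1.90 to -0.07. The share of kept knockout cells was 3.29% with milk below 3%, 4.47% below 8%, 3.20% with no hormone-sensing gene and 6.19% with the rule applied after thinning to 1000 UMIs. The share of kept wild type cells was 0.814% below 3%, 1.49% below 8%, 0.869% with the stricter luminal call and 1.498% with the thinned rule. Of non-cycling secretory-lineage cells it was 50.2% and 68.1% in the knockout below 3% and 8%. In the wild type it was 3.80% and 6.93%, 3.96% in cells with at least 2000 UMIs and 9.99% with the thinned rule. The cause was not tested. No paired analysis was possible because each genotype has 1 library. The 103 wild type members and their 397041 UMIs limit the precision of most ratios.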
